A study of Homo sapiens with 12 samples.

Results

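The neural crest lineage genes SOX10, MITF, CSPG4, ROPN1B, ERBB3, MIA, EDNRB, DCT and RAB38 were followed in MDA-MB-231, a human breast carcinoma line, under 6 culture conditions. These 9 genes of 31334 gene symbols have 20 of the 47231 probes on the Illumina HumanHT-12 v4 array, and all 20 are accounted for here. The genes were chosen by their measured signal, since it was lower in minimum essential medium (MEM) with 10% fetal bovine serum (FBS) at 90% confluence than in the other 5 conditions, so that difference is given as a description, without a test. Tests were kept for differences among the other 5 conditions. The genes were chosen with earlier results of these data known, so these tests are not free of that choice either. A total of 12 arrays was measured, 2 per condition. The reference condition, called MEM below, was MEM with 10% FBS at 90% confluence. DMEM and RPMI-1640 stand for those media with 10% FBS at 90% confluence. HS stands for MEM with 10% horse serum at 90% confluence, 0.1% FBS for MEM with that amount of serum at 90% confluence, and 50% confluence for MEM with 10% FBS at the lower density. By the labels all 12 arrays hold the same line. Each of the other 5 conditions differed from MEM in 1 factor, the medium, the kind or amount of serum, or the density. Between DMEM and RPMI-1640 only the medium differed. Against 0.1% FBS, HS differed in the kind and amount of serum, 50% confluence in serum amount and density, and DMEM and RPMI-1640 in medium and serum amount. The labels do not say whether the 2 arrays of a condition came from separate cultures, so the p-values measure the spread between these arrays, which may be technical.

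The neural crest is an embryonic cell population that gives rise to melanocytes, Schwann cells and other cell types. SOX10 is a transcription factor that keeps these lineages in being and switches on MITF, the transcription factor at the head of the melanocyte program, whose targets include enzymes and transport proteins of the pigment granule. Cell lines of this lineage, melanomas among them, often carry the surface and secreted proteins CSPG4, ERBB3, EDNRB and MIA.

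Signals are given as deposited, on the log2 scale after quantile normalization. Background was set per array from 463 olfactory receptor probes, at their 95th percentile, and lay between 6.90 and 6.99 log2, with 16685 to 20065 probes per array above it. The number of arrays, 2 per condition, limits the precision. Of the 20 probes, 15 were above background on at least 2 arrays, and the brightest probe of each of the 9 genes was above background on all 12. That probe stands for its gene below, and levels are compared within a probe only. Arrays of 1 condition correlated over all probes at 0.987 to 0.996 and arrays of different conditions among the other 5 at 0.964 to 0.991, whereas the 2 MEM arrays correlated with the other 10 at 0.914 to 0.940 and so stand apart. Of 11 luminal breast markers, KRT18 and MUC1 were above background on both arrays of every condition. ELF3 was so in MEM, RPMI-1640 and 50% confluence, and KRT8 and EPCAM in MEM alone. ESR1, PGR, GATA3, FOXA1, KRT19 and CDH1 were so in no condition. Of 11 basal and mesenchymal breast markers, CAV1, CAV2, VIM, CD44 and AXL were so in every condition. EGFR and PLAU were so in some conditions, and KRT5, KRT14, KRT17 and TP63 in none. Of the 8 melanocyte markers on the array, TYR, DCT and GPR143 were above background on both arrays in MEM, DMEM, RPMI-1640 and 0.1% FBS, and DCT and GPR143 in HS and 50% confluence, while TYRP1, MLANA, SILV, SLC45A2 and OCA2 were not in any condition. The labels call all 12 arrays breast cancer, and the identity of the cells on the arrays was not tested. With 2 arrays of MEM that stand apart, the culture condition and a difference between the cells on these arrays and on the other 10 cannot be told apart in any comparison with MEM.

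In MEM at 90% confluence all 9 brightest probes were lower than the mean of the other 5 conditions, by 1.05 (MITF) to 2.35 (SOX10) on the log2 scale, which is how the genes were chosen. The share of all probes called lower in that comparison at an adjusted p under 0.05 was 11.5%, and nothing is read from the count of the 9. SOX10, the transcription factor at the start of the series of lineage regulators, measured 8.29 and 8.22 on the 2 MEM arrays. It measured 11.09 and 11.11 in DMEM, 10.73 and 11.05 in RPMI-1640, 10.25 and 9.65 in HS, 10.56 and 10.93 in 0.1% FBS, and 10.32 and 10.38 at 50% confluence. Both MEM arrays lay below all other 10 without overlap, and the mean was 5.11-fold below the mean of the 5 conditions. In these bulk samples fewer cells with a transcript and less of it per cell cannot be told apart. CSPG4, a membrane proteoglycan of melanoma cells and immature glia, had 7.30 and 7.19 in MEM against 8.79 to 10.00 on the other 10 arrays, a difference of 4.68-fold.

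**Figure D1:**
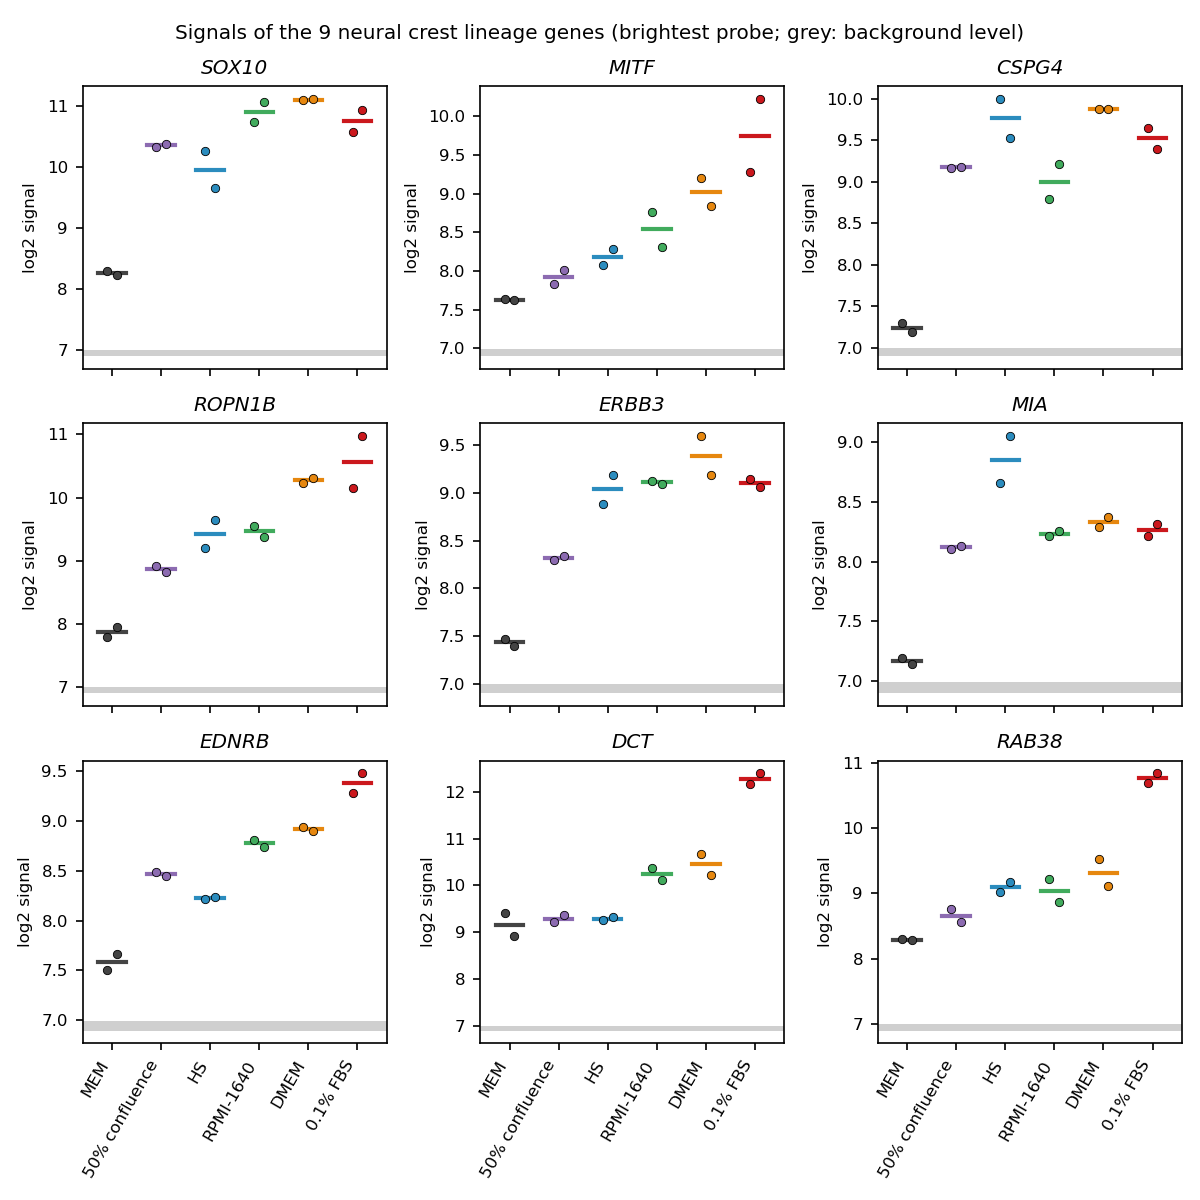
Log2 signal (vertical axis) of the brightest probe of each of the 9 genes in the 6 conditions (horizontal axis). Points are the 2 arrays, lines their mean, and the grey band the range of background over the 12 arrays. The 2 MEM points are the lowest of every gene but DCT, and 0.1% FBS the highest means of MITF, ROPN1B, EDNRB, DCT and RAB38.

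The receptors and the secreted protein were likewise lowest in MEM. ERBB3, the receptor that binds neuregulins, stood at 7.47 and 7.39 in MEM and at 8.30 to 9.60 elsewhere. EDNRB, a receptor for endothelins on melanocyte precursors, stood at 7.50 and 7.66 in MEM and at 8.21 to 9.47 elsewhere. MIA, a small protein secreted by melanoma cells, stood at 7.20 and 7.14 in MEM, close to background, and at 8.11 to 9.05 elsewhere. For these 3 genes no MEM array overlapped any other array. Since the 9 genes were chosen by a low level in MEM, nothing is read from a lack of overlap for any of them. ROPN1B, a protein of the sperm tail that is also made in melanomas, had 7.79 and 7.96 in MEM and 8.82 to 10.97 elsewhere, and MITF had 7.63 on both MEM arrays and 7.83 to 10.23 elsewhere. MITF on the first array of 50% confluence was thus close to MEM. A dimmer MITF probe, ILMN_1761324, measured 7.03 and 6.91 in MEM. It overlapped DMEM and HS, all at about background, and was lower in MEM than in RPMI-1640, 0.1% FBS and 50% confluence only. The second probes of ERBB3 (ILMN_1737993) and ROPN1B (ILMN_1781758) were lower in MEM than on all other arrays.

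DCT and RAB38, the members nearest to pigment synthesis, were less far from MEM in some conditions. DCT, an enzyme of melanin synthesis, measured 9.40 and 8.92 in MEM, and these 2 arrays overlapped HS (9.25 and 9.33) and 50% confluence (9.22 and 9.37). Without the first MEM array its difference from the mean of 5 was -1.39 instead of -1.15, and without the second -0.91. RAB38, a small GTPase that carries pigment enzymes to melanosomes, had 8.29 and 8.28 in MEM and 8.56 to 10.84 elsewhere, with no overlap.

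The 5 comparisons of MEM share the 2 MEM arrays, and their values are given side by side. For SOX10, MEM minus the other condition was -2.85 in DMEM, -2.64 in RPMI-1640, -2.49 in 0.1% FBS, -2.10 at 50% confluence and -1.70 in HS. For MITF it was -2.12 in 0.1% FBS, -1.39 in DMEM, -0.91 in RPMI-1640, -0.55 in HS and -0.29 at 50% confluence. DCT ranged further, from -3.12 in 0.1% FBS to -0.13 in HS and at 50% confluence. The condition that differed least from MEM was therefore not one for all genes: it was HS for SOX10 and EDNRB, RPMI-1640 for CSPG4, 50% confluence for MITF, ROPN1B, ERBB3, MIA and RAB38, and both HS and 50% confluence for DCT. Of the 11 luminal markers, KRT8, a keratin, moved with this difference in the other direction, at 10.04 in MEM and no more than 6.89 in the other conditions, and MUC1, a mucin, in the same direction as the 9 genes, at 7.19 in MEM and 8.38 to 9.30 elsewhere. The differences of the other 9 luminal markers lay between -0.09 (GATA3) and 0.45 (EPCAM). The summed linear signal of the 11 was 2240 to 2599 in MEM against 1484 to 1807 elsewhere. The summed signal of the 8 melanocyte markers was 1386 to 1543 in MEM, within reach of HS (1428 to 1511) and 50% confluence (1448 to 1472). DCT is both a melanocyte marker and 1 of the 9 genes. The part of the other luminal and melanocyte markers in the lower level of the 9 genes was not tested.

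**Figure D2:**
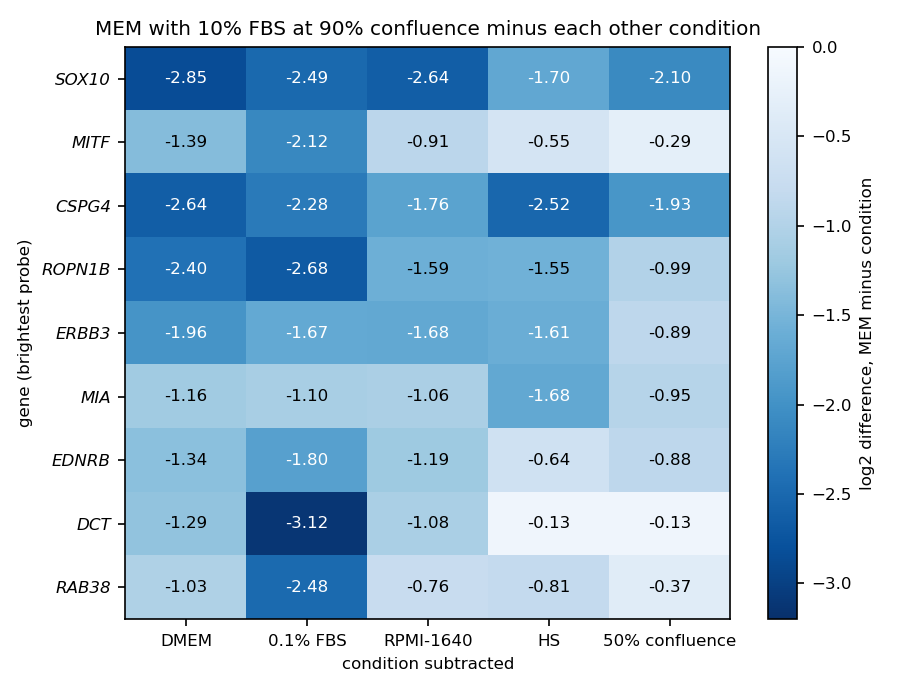
Log2 difference of MEM minus each of the other 5 conditions (columns) for the brightest probe of each of the 9 genes (rows), as numbers and color. All cells are below 0, from -0.13 for DCT in HS and at 50% confluence to -3.12 for DCT in 0.1% FBS. The columns share the 2 MEM arrays.

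Among the other 5 conditions, the 9 genes split by where they were highest. By their means MITF, ROPN1B, EDNRB, DCT and RAB38 were highest in 0.1% FBS, SOX10, CSPG4 and ERBB3 in DMEM, and MIA in HS. For SOX10, CSPG4, ERBB3 and ROPN1B limma did not tell the highest condition apart from the next (adjusted p = 0.285 to 0.8). In limma's moderated F test over the 5 conditions, adjusted by Benjamini-Hochberg over all probes, 9 of the 9 brightest probes and 12 of all 20 probes were called at an adjusted p under 0.05, where 19.9% of all probes were. Against the mean of DMEM, RPMI-1640, HS and 50% confluence, 5 of the 9 brightest probes rose in 0.1% FBS and none fell, where 6.46% of all probes rose and 6.06% fell. Over all 20 probes, 7 rose and 1 fell. With 1 brightest probe for each of the 31334 gene symbols, 7.27% rose and 7.16% fell. The median log2 difference was 0.78 over the 9 brightest probes and -0.00463 over the brightest probes of all symbols. It was 0.0753 over the 20 probes and -0.00363 over all probes.

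DCT had the largest increase of the 9 in 0.1% FBS. It measured 12.16 and 12.39 in 0.1% FBS, 10.67 and 10.23 in DMEM, 10.36 and 10.11 in RPMI-1640, 9.25 and 9.33 in HS, and 9.22 and 9.37 at 50% confluence. Both arrays of 0.1% FBS lay above the other 8. The difference from the mean of 4 was 2.46 log2 (standard error 0.128, adjusted p = 1.56e-08). DCT was 7.91-fold higher than at 50% confluence and 7.93-fold higher than in HS, against 3.55-fold over DMEM and 4.11-fold over RPMI-1640, and each of these 4 differences was called. DCT was also higher in RPMI-1640 than in HS and at 50% confluence, by 0.95 (adjusted p = 0.00165) and 0.94 (adjusted p = 0.0294). The second of these calls was lost without the first RPMI-1640 array (0.82, adjusted p = 0.332) or either array of 50% confluence (0.87 and 1.02, adjusted p = 0.319 and 0.111). RefSeq lists 2 start sites for DCT on GRCh38.p14. The downstream one is printed because it is the only one of 11 listed promoters of 6 of the 9 genes that holds TCATGTG, the core of the M-box, a motif to which MITF is known to bind in pigment gene promoters. The window runs from 250 bases before the start site to 50 after it, and capitals mark TCATGTG, found at 135 bases before the start, and its reverse complement CACATGA, found at 215 bases before it.
DCT, chr13:94479633-94479932, minus strand: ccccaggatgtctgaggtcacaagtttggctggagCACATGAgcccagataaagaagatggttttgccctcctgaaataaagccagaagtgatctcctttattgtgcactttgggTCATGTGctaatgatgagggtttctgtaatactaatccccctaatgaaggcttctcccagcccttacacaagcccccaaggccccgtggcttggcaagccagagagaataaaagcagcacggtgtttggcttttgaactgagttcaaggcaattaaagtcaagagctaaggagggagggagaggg
The motif occurs on either strand in 2.92% of 35116 promoters of this length, and a match describes the letters only.

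RAB38 rose beside DCT. Its signals were 10.69 and 10.84 in 0.1% FBS, against 9.52 and 9.10 in DMEM, 9.22 and 8.86 in RPMI-1640, 9.03 and 9.17 in HS, and 8.76 and 8.56 at 50% confluence. No array of the 4 conditions with 10% serum came within 1 log2 unit of the 0.1% FBS arrays. The difference from the mean of 4 was 1.74 (standard error 0.112, adjusted p = 1.01e-07), and RAB38 was called higher than in each of the 4 conditions, by 1.45 to 2.11. RAB38 was higher in DMEM than at 50% confluence by 0.65 (adjusted p = 0.00802), a call lost without the first DMEM array (0.45, adjusted p = 0.13) or the second array of 50% confluence (0.55, adjusted p = 0.101). No other pair among the 4 was called, although HS against 50% confluence (0.44, adjusted p = 0.0663) was so without either array of DMEM or RPMI-1640 (adjusted p = 0.0428 to 0.0463).

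MITF measured 9.28 and 10.23 in 0.1% FBS, 9.21 and 8.84 in DMEM, 8.77 and 8.32 in RPMI-1640, 8.08 and 8.28 in HS, and 7.83 and 8.01 at 50% confluence. The 2 arrays of 0.1% FBS were nearly 1 log2 unit apart, and the lower of them was close to the higher DMEM array. MITF rose by 1.33 over the mean of 4 (standard error 0.179, adjusted p = 9.5e-05), and without the second 0.1% FBS array the difference was 0.86 (adjusted p = 0.00148). Against each condition, MITF was higher by 1.83 over 50% confluence, 1.57 over HS (adjusted p = 2.59e-04), 1.21 over RPMI-1640 and 0.73 over DMEM (adjusted p = 0.0489). The last of these was lost without the second array of 0.1% FBS (0.25, adjusted p = 0.512) and without either array of MEM, DMEM or 50% confluence (adjusted p = 0.0704 to 0.339), and was 1.20 without the first array of 0.1% FBS. The rise over RPMI-1640 was 0.73 without the second (adjusted p = 0.0159). Neighbors in the order DMEM, RPMI-1640, HS and 50% confluence were not told apart by the test.

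A second MITF probe, ILMN_1761324, gave another order. It measured 7.69 and 7.71 in 0.1% FBS, 7.61 and 7.56 in RPMI-1640, and 7.54 and 7.48 at 50% confluence, but 6.90 and 6.98 in DMEM and 6.98 and 6.92 in HS, at about background. By this probe 0.1% FBS was at least 1.67-fold higher than DMEM (adjusted p = 4.46e-05), and RPMI-1640 at least 1.54-fold higher than DMEM (adjusted p = 4.74e-04), whereas the brightest probe was 0.48 higher in DMEM than in RPMI-1640 (adjusted p = 0.312). The rise over the mean of 4 was called by both probes, at 0.46 (adjusted p = 3.22e-04) for the second. The second probe was called higher in 0.1% FBS than in DMEM and HS only. Its differences from 50% confluence (0.20, adjusted p = 0.229) and RPMI-1640 (0.12, adjusted p = 0.614) were not called, unlike those of the brightest probe. The last MITF probe, ILMN_1657854, was not above background on any array. MITF has several start sites, and the tables do not say which transcripts each probe reads. Of the 3 that RefSeq lists on GRCh38.p14, the one farthest downstream is printed because it holds TGACGTCA, the cAMP response element, through which MITF is known to be switched on in melanocytes, here at 152 bases before the start and in capitals.
MITF, chr3:69936342-69936641, plus strand: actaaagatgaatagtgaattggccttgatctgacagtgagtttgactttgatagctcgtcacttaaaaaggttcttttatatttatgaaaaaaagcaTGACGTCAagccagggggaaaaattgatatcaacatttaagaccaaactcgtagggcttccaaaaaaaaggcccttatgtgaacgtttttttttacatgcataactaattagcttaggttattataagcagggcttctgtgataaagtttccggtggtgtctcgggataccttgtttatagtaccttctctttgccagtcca
That element occurs in 1.85% of all promoters of this length. The 6-base motif ACAAAG, of the type SOX proteins bind, occurs on either strand in 3 of the 11 listed promoters, those of CSPG4, MIA and another MITF start, and in 16.1% of all. AACAAT, likewise of that type, occurs in both MIA promoters and in 10.1% of all. The palindromic E-box CACGTG occurs in none of the 11 and in 7.26% of all.

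ROPN1B rose as well, with its second 0.1% FBS array highest, as for MITF. Its signals were 10.14 and 10.97 in 0.1% FBS, 10.24 and 10.31 in DMEM, 9.54 and 9.38 in RPMI-1640, 9.20 and 9.65 in HS, and 8.92 and 8.82 at 50% confluence. The DMEM arrays lay between the 2 arrays of 0.1% FBS. ROPN1B rose by 1.05 over the mean of 4 (standard error 0.156, adjusted p = 2.38e-04), or by 0.64 without the second 0.1% FBS array (adjusted p = 0.0056). The difference from DMEM, 0.28, was not called (adjusted p = 0.471), although it was without the first 0.1% FBS array (0.70, adjusted p = 0.0093). ROPN1B was higher in DMEM than in RPMI-1640 by 0.81 (adjusted p = 0.0247), a call lost without any 1 of these 4 arrays (0.73 to 0.89, adjusted p = 0.0802 to 0.172). Without the second 0.1% FBS array, the rise was 0.72 over HS and 0.68 over RPMI-1640, from 1.13 and 1.10, and both stayed called. The second probe of the gene, ILMN_1781758, rose by 1.08 over the mean of 4 (adjusted p = 6.71e-04), or by 0.57 without the second 0.1% FBS array (adjusted p = 0.0164), and the other 3 probes stayed at about background, above it on no more than 2 arrays. ROPN1, a near-identical paralog, rose by 0.92 (adjusted p = 0.00183), a call lost without the same array (0.50, adjusted p = 0.0862), and signals of the 2 genes cannot be told apart with certainty on a hybridization array.

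EDNRB had the smallest of the 5 increases and the smallest standard error among them. It measured 9.28 and 9.47 in 0.1% FBS, 8.94 and 8.90 in DMEM, 8.81 and 8.74 in RPMI-1640, 8.48 and 8.45 at 50% confluence, and 8.21 and 8.24 in HS. The conditions did not overlap on any array. The rise over the mean of 4 was 0.78 (standard error 0.0766, adjusted p = 5.24e-06), with 0.46 over DMEM, 0.60 over RPMI-1640, 0.91 over 50% confluence and 1.15 over HS, all called. Without the second array of 0.1% FBS the difference from DMEM was 0.36 (adjusted p = 0.0571). The other 3 EDNRB probes were above background on at most 4 arrays and not called in any comparison among the 5 conditions.

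**Figure D3:**
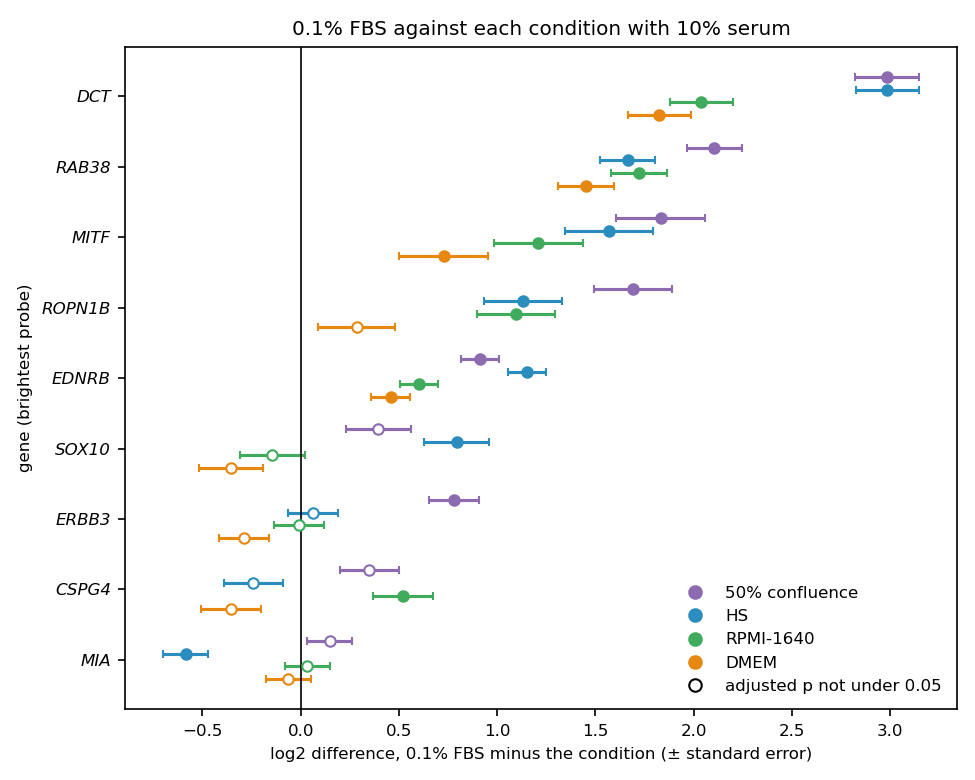
Log2 difference of 0.1% FBS minus each of the 4 conditions with 10% serum (colors) for the brightest probe of the 9 genes, with bars of 1 standard error from limma. Filled points have an adjusted p under 0.05. DCT, RAB38, MITF and EDNRB are filled and right of 0 in all 4 comparisons, and the points of SOX10, ERBB3, CSPG4 and MIA lie on both sides of 0.

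SOX10 was not called in 0.1% FBS against the mean of 4. That difference was 0.17 (standard error 0.131, adjusted p = 0.537), and against the single conditions it was -0.35 in DMEM, -0.14 in RPMI-1640, 0.39 at 50% confluence and 0.79 in HS. Only the last was called (adjusted p = 0.00452), and it was lost without the second HS array (0.49, adjusted p = 0.0571) or the second 0.1% FBS array (0.61, adjusted p = 0.0572). SOX10 was lowest in HS, by 1.15 below DMEM (adjusted p = 8.99e-04) and by 0.94 below RPMI-1640 (adjusted p = 0.00205). From the highest to the lowest level the order was DMEM, RPMI-1640, 0.1% FBS, 50% confluence and HS, and no neighbors in it were told apart, although HS minus 50% confluence (-0.40, adjusted p = 0.174) was called without the first HS array (-0.70, adjusted p = 0.0121).

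CSPG4, ERBB3 and MIA were likewise not called against the mean of 4, at 0.07 (adjusted p = 0.841), 0.14 (adjusted p = 0.521) and -0.12 (adjusted p = 0.546). CSPG4 measured 9.88 on both DMEM arrays, 10.00 and 9.53 in HS, 9.65 and 9.39 in 0.1% FBS, 9.17 and 9.18 at 50% confluence, and 8.79 and 9.21 in RPMI-1640. It was higher in DMEM than in RPMI-1640 by 0.88 (adjusted p = 0.00268) and higher in HS than in RPMI-1640 by 0.76 (adjusted p = 0.00456). The second call was lost without the first RPMI-1640 array (adjusted p = 0.0778) or the first HS array (adjusted p = 0.0595). MIA had its highest signals in HS, at 8.66 and 9.05, where the arrays of the other 4 conditions were at 8.11 to 8.37. It was called higher in HS than in each of the other 4 conditions, by 0.73 over 50% confluence (adjusted p = 6.76e-04), 0.62 over RPMI-1640 (adjusted p = 0.00272), 0.59 over 0.1% FBS (adjusted p = 0.00275) and 0.52 over DMEM (adjusted p = 0.014). The difference from DMEM was not called without the second HS array (0.32, adjusted p = 0.159) or either DMEM array (adjusted p = 0.0668 to 0.113), and that from 0.1% FBS was 0.39 without the second HS array (adjusted p = 0.0384). HS was thus the condition with the highest MIA and the lowest SOX10, and over these 10 arrays the Pearson correlation of the pair was -0.612, as a description.

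ERBB3 had its lowest level of the 5 at 50% confluence. It measured 8.30 and 8.34 there, and 9.60 and 9.19 in DMEM, 9.12 and 9.10 in RPMI-1640, 9.14 and 9.06 in 0.1% FBS, and 8.89 and 9.19 in HS. The last 4 conditions overlapped one another in part and none overlapped 50% confluence. Each was called higher than 50% confluence, by 1.07 in DMEM (adjusted p = 7.59e-05), 0.79 in RPMI-1640 (adjusted p = 0.0212), 0.78 in 0.1% FBS (adjusted p = 6.04e-04) and 0.72 in HS (adjusted p = 0.0018). The call in RPMI-1640 was lost without any 1 of its own arrays or those of 50% confluence (adjusted p = 0.0547 to 0.245). Its second probe, ILMN_1737993, was highest in DMEM at 8.03 and 8.02, and was lower in 0.1% FBS than the mean of 4 by 0.31 (adjusted p = 0.0294), the 1 fall among the 20 probes, which was lost without the first RPMI-1640 array (0.30, adjusted p = 0.0519) or either 0.1% FBS array (0.38 and 0.24, adjusted p = 0.058 and 0.296). By that probe 0.1% FBS and 50% confluence differed by -0.01 (adjusted p = 0.991), so the ERBB3 probes disagree on this pair. The dimmest ERBB3 probe, ILMN_2397602, was above background on 7 arrays, with 7.40 and 7.05 in DMEM, 7.17 and 7.05 in RPMI-1640, 6.98 and 7.12 in 0.1% FBS, 6.93 and 6.94 at 50% confluence, and 6.77 and 6.81, not above background, in HS. It was at least 1.18-fold higher in DMEM than in HS (adjusted p = 0.0359), a call lost without the first DMEM array or either array of MEM, HS or 50% confluence (adjusted p = 0.0508 to 0.305), and it was not called in 0.1% FBS against the mean of 4 (0.04, adjusted p = 0.894).

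**Figure D4:**
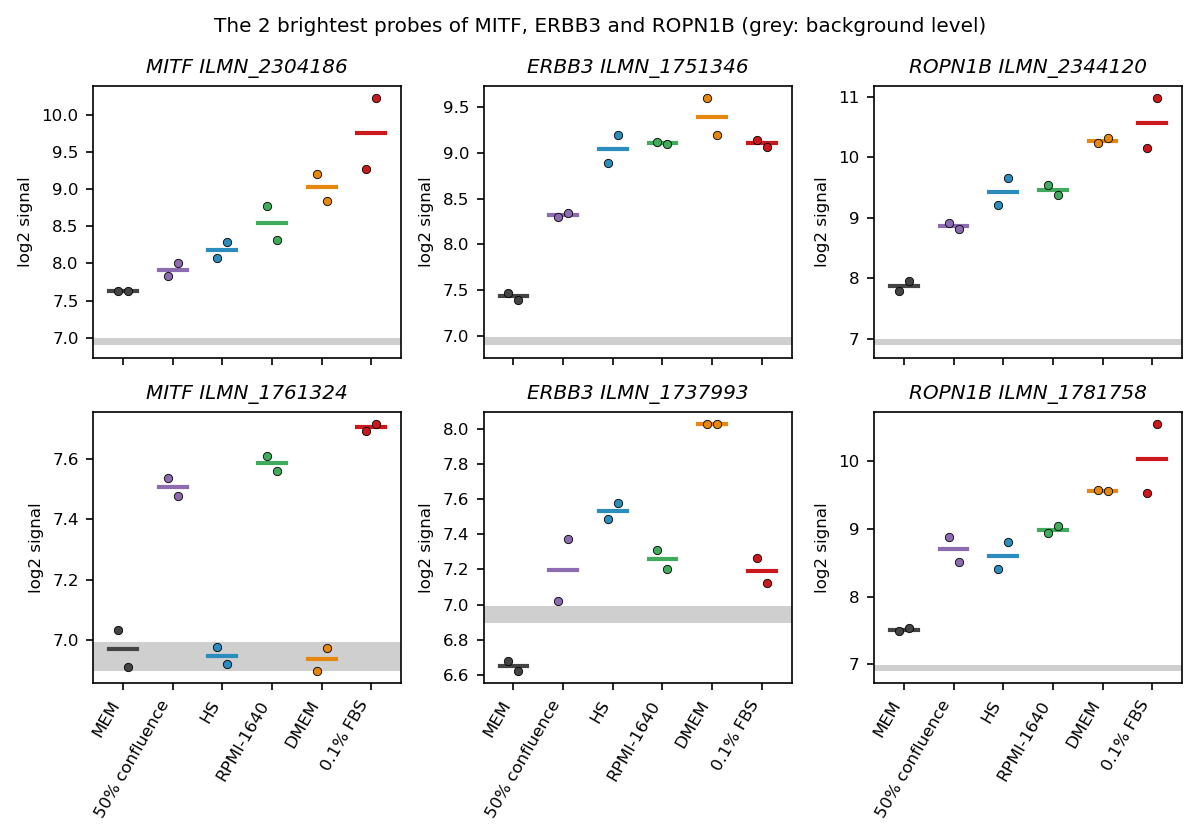
Log2 signal of the 2 brightest probes of MITF, ERBB3 and ROPN1B (columns of panels) in the 6 conditions, with points for the 2 arrays, lines for their mean and a grey band for background. The second MITF probe is at about background in DMEM and HS, where the first is above it, and the second ERBB3 probe is highest in DMEM.

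Single pairs showed how many of the genes moved together. Against 50% confluence 6 of the 9 brightest probes were higher in 0.1% FBS, where 5.43% of all probes were. Against HS 6 were higher and 1, MIA, lower, where 6.03% and 5.52% of all probes were. Against RPMI-1640 6 were higher, where 4.14% of all probes were, among them CSPG4 by 0.52 (adjusted p = 0.0439), a call lost without either array of MEM, DMEM or 50% confluence (adjusted p = 0.0661 to 0.071), the first of RPMI-1640 (0.31, adjusted p = 0.446) or the first of 0.1% FBS (0.39, adjusted p = 0.293). Against DMEM 4 were higher, MITF, EDNRB, DCT and RAB38, where 6.05% of all probes were. With 1 brightest probe per gene symbol, the shares higher in 0.1% FBS were 6.36% against 50% confluence, 6.62% against HS, 4.95% against RPMI-1640 and 6.51% against DMEM. The share lower against HS was 6.41%. DMEM against RPMI-1640, the pair that differs in the medium alone, had 2 of the 9 higher in DMEM, CSPG4 and ROPN1B, where 2.35% of all probes were. Between DMEM and 50% confluence 8 of the 9 were higher in DMEM, all but MIA, where 4.09% of all probes were. For MITF the probes disagree on this pair, since ILMN_1761324 was called at least 1.46-fold lower in DMEM (adjusted p = 7.92e-04). Of those 8, DCT, ERBB3 and ROPN1B stayed called whichever array was left out, while SOX10 and CSPG4 were lost without any array of either condition, EDNRB and RAB38 without the first DMEM or the second 50% confluence array, and MITF without the first array of either. Against HS, 6 of the 9 were called in DMEM and 5 in RPMI-1640 in either direction, where 5.04% and 8.46% of all probes were, and 3 were higher in HS than at 50% confluence, CSPG4, ERBB3 and MIA, where 4.55% were. The DMEM calls of MITF (0.84, adjusted p = 0.0437) and ROPN1B (0.85, adjusted p = 0.0203) against HS were lost, for MITF without any 1 array of MEM, DMEM, HS or 50% confluence (adjusted p = 0.0662 to 0.301) and for ROPN1B without either DMEM array or the first HS array (adjusted p = 0.106 to 0.16). The call of CSPG4 in HS against 50% confluence (0.59, adjusted p = 0.0206) was lost without the first HS array (0.36, adjusted p = 0.239) or either array of 50% confluence (adjusted p = 0.101 to 0.113). That of ROPN1B (0.56, adjusted p = 0.0994) was gained without the first HS array or either 0.1% FBS array (adjusted p = 0.00861 to 0.0483). Between RPMI-1640 and 50% confluence 0.220% of all probes were called in either direction, and DCT and ERBB3 were 2 of the 104.

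The genes also differed in how alike they were over the 10 arrays outside MEM. Pearson correlations are descriptions over arrays that share conditions. MITF correlated with ROPN1B at 0.943, with DCT at 0.932, with EDNRB at 0.908 and with RAB38 at 0.893, and with SOX10 at 0.528. SOX10 correlated with EDNRB at 0.681 and with CSPG4 at 0.048. Among 1307 gene symbols above background whose condition means spanned at least 1 log2 unit, those most like SOX10 were GAS7 (0.923), BAMBI (0.896), RNF150 (0.889), FZD4 (0.879) and C4orf18 (0.866). FZD4 is a Wnt receptor and BAMBI a decoy receptor for the TGF-β family. Most like MITF were SQLE (0.966), the squalene epoxidase of cholesterol synthesis, IFT81 (0.959), a protein of transport in cilia, CITED1 (0.958), a transcriptional coregulator, TRIM9 (0.957) and LOC728715 (0.956).

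Related genes were counted on lists of the pathway, with 1 brightest probe per gene symbol, where 7.27% of 31334 symbols rose in 0.1% FBS over the mean of 4 and 7.16% fell. Of 20 transcription factors of the neural crest and of the MITF and SOX families 3 rose and none fell: TFAP2A by 1.11, SNAI2 by 0.84 and ETS1 by 0.44, all regulators of neural crest cells. SNAI2 was not called without the second 0.1% FBS array (0.26, adjusted p = 0.173) and was 1.43 without the first, and ETS1 was not called without either (adjusted p = 0.0681 to 0.151). PAX3, a partner of SOX10 at the MITF promoter, differed by -0.12 (adjusted p = 0.655). Of 14 pigment genes, 8 of them above background on at least 2 arrays, 4 rose and none fell. These were TYR by 2.22 (adjusted p = 3.19e-09), the tyrosinase that starts melanin synthesis, and MYO5A by 1.36, MLPH by 0.78 and RAB27A by 0.63, the 3 parts of the motor complex that moves melanosomes. TYR was not above background on both arrays of HS or of 50% confluence, so its 2.22 rests in part on dim values. MC1R, the melanocortin receptor, differed by 0.00244 (adjusted p = 0.997).

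Of 18 MITF targets outside pigment synthesis 7 rose and 2 fell. CAPN3, a muscle protease also made in melanocytes, rose by 2.26 (adjusted p = 8.64e-10), GPNMB, a melanosome glycoprotein, by 1.91 (adjusted p = 1.94e-08), and PPARGC1A, a coactivator of mitochondrial genes, by 1.22 (adjusted p = 1.44e-06). CDK2, a cell cycle kinase, fell by 0.80 (adjusted p = 2.88e-05). Of genes of Schwann cells, GJB1, a gap junction protein, rose by 0.72 and CDH19, a cadherin of Schwann cell precursors, by 0.43. CDH19 was not called without the first 0.1% FBS array (0.33, adjusted p = 0.146).

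The ligands and partners of EDNRB and ERBB3 were mostly dim. Of 6 endothelin pathway genes none rose and 2 fell, the endothelin converting enzymes ECE2 by 0.41 and ECE1 by 0.35, and EDN1, EDN2 and EDN3, which encode the ligands of EDNRB, were at about background in the 5 conditions, with means of 6.46 to 6.92, so that their lack of a call says nothing of a change. ECE1 was above background on 4 of the 12 arrays. ECE2 lost its call without either 0.1% FBS array (adjusted p = 0.0591 to 0.0625) and ECE1 without the second (adjusted p = 0.124). Of 7 neuregulin pathway genes 4 were above background on at least 2 arrays. None of the 7 was called in either direction by limma, among them ERBB2, the partner of ERBB3, at -0.08 (adjusted p = 0.73). Of 14 paralogs and partners of the 9 genes 3 rose, ROPN1, HPS4 by 0.54 and RAB32, a RAB38 paralog, by 0.38, and 3 fell, MIF by 0.61 being the largest. RAB32 was not called without the first 0.1% FBS array (0.17, adjusted p = 0.41) and rose by 0.59 without the second. Of 12 genes known to be high in melanoma cells with little MITF, 4 fell and 1 rose. Of the 12, 10 were above background on at least 2 arrays, SOX9 among them through MEM alone. For those at about background in the 5 conditions the lack of a call says nothing of a change. TPM1 fell by 1.41 (adjusted p = 1.15e-07), FOSL1 by 1.20 (adjusted p = 8.8e-06), AXL, a receptor tyrosine kinase, by 1.00 (adjusted p = 1.21e-04) and CYR61 by 0.84, and JUN rose by 0.82. Of 8 genes used in most cells GAPDH fell by 0.29 (adjusted p = 0.0456) and TBP by 0.36 (adjusted p = 0.00455). GAPDH lost its call without either array of DMEM or 0.1% FBS or the first of RPMI-1640, HS or 50% confluence (adjusted p = 0.0709 to 0.258), and TBP without the second of 0.1% FBS (adjusted p = 0.0644).

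**Figure D5:**
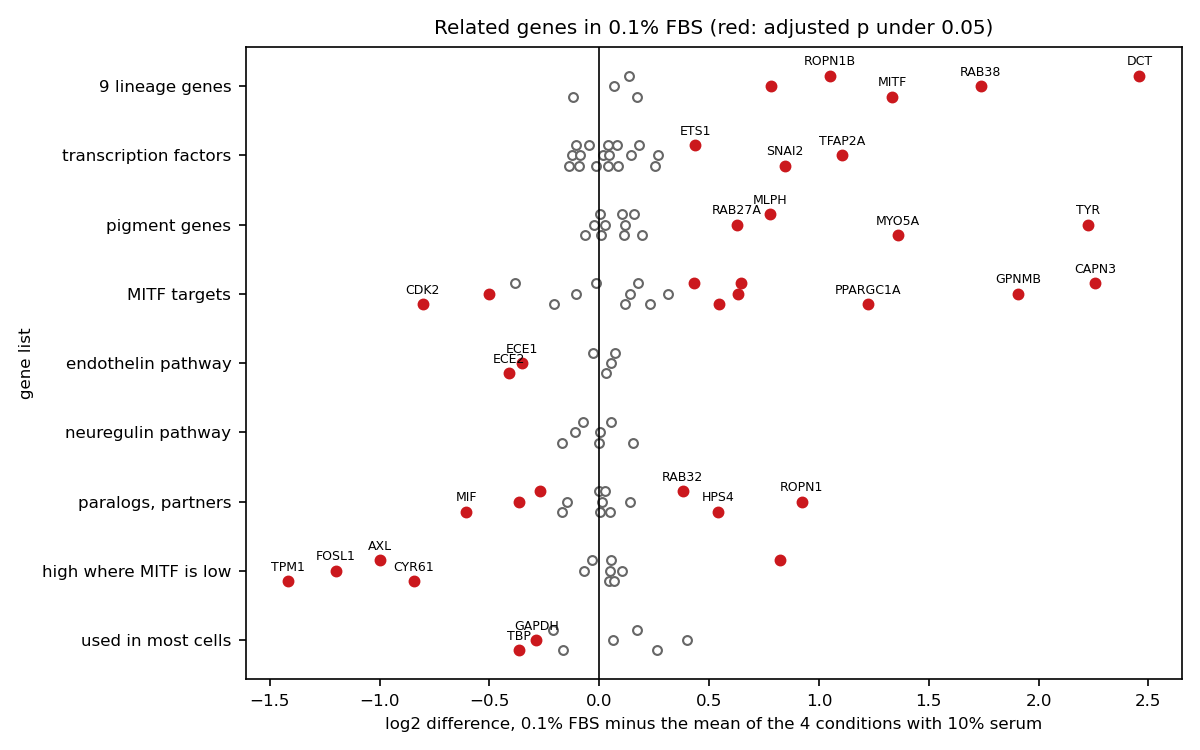
Log2 difference of 0.1% FBS minus the mean of the 4 conditions with 10% serum (horizontal axis) for each gene of the lists shown (rows), with an adjusted p under 0.05 in red and up to 4 of those labeled per list. Pigment genes in red lie right of 0, and 4 of 5 red genes of the list high where MITF is low lie left of 0.

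Of the 8 melanocyte markers, DCT and TYR rose in 0.1% FBS and the other 6 were not called, with a median difference of 0.14. The summed linear signal of all 8 was 5917 and 6953 on the 2 arrays of 0.1% FBS. In DMEM, RPMI-1640, HS and 50% confluence it was 1428 to 2536. SILV, MLANA, TYRP1, SLC45A2 and OCA2 were not above background on both arrays of any condition. The sum includes DCT, which measured 12.16 and 12.39 log2 on the 2 arrays of 0.1% FBS. The higher sum is therefore not evidence separate from the rise of DCT. Sums of the 8 fibroblast markers were 952.8 and 1012 in 0.1% FBS against 843.9 to 911.2 in the other 4, with LUM alone above background on both of its arrays, those of 6 blood cell markers 632.9 and 658.3 against 646.4 to 688.2, and those of 11 luminal markers 1703 and 1807 in 0.1% FBS against 1484 to 1665 in the other 4. The 11 basal and mesenchymal markers summed to 29710 and 31410 in 0.1% FBS, inside the 23570 to 38090 of the other 4. The part of the markers other than DCT in the rise of the 5 genes was not tested.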

How the data were processed

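RNA of MDA-MB-231 cells was hybridized to 12 Illumina arrays. The authors exported signals with BeadStudio, per the labels, and normalized them by quantiles. They deposited signal intensities on the linear scale and the same values as log2, which were used here. The tables differed by over 0.01 log2 for 8 probes, none of them among the 20. Limma was fitted to all 47231 probes, 3270 without a name included, on all 12 arrays with 1 mean per condition (6 residual and 8.96 prior degrees of freedom), and p-values were adjusted by Benjamini-Hochberg over all probes of a comparison and called under 0.05. No filter on dim probes was used. Some genes of the lists, and counts and sums that hold them, are not reported here. Members and lists were chosen with earlier results of these data known. Named genes were the 9 members, the 5 symbols most like SOX10 and like MITF, and up to 4 called genes of each list with the largest change in 0.1% FBS; genes outside this rule were named after their values were seen. A promoter window spans 300 bases, and 6 of the 9 genes matched RefSeq's table. The replicate numbers were checked for pairing. Scripts were tested on simulated data. Alternatives were a second normalization of the linear table, centering on medians, a background filter, 1 probe per symbol, other samples in the fit, another variance model, a 2-fold limit, a replicate block, each array left out, and the methods' t-test. Over the 5 conditions a 1-way analysis of variance stood for the t-test. Software was R 4.3.3, limma 3.58.1, Python 3.11.15 and matplotlib 3.10.9.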

Additional observations from a re-analysis of the deposited data

How the results depend on the processing

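Counts below are of the 20 probes called at an adjusted p under 0.05 unless another threshold is named. With a further limit of 2-fold, 5 were called in 0.1% FBS against the mean of 4 (8 without it), 2 against DMEM (6) and 6 over the 6 pairs without 0.1% FBS (36). With 1 probe per gene symbol, which tests 9 probes, 5 were called against the mean of 4. The methods' t-test at P under 0.001 called 2 against the mean of 4, 2 over the 6 pairs and 0 against 50% confluence (7 by limma), HS (9), DMEM and RPMI-1640 (7). For the mean of 4 this t-test pooled the 8 arrays of the 4 conditions as 1 group, so differences between those conditions add to its error. Over the 5 conditions a 1-way analysis of variance at that threshold called 4 (12 by limma). After Benjamini-Hochberg the analysis of variance called 3. The t-test then called 2 against the mean of 4 and 0 for the 6 pairs and each single condition. DCT and RAB38 kept their call against the mean of 4 under the t-test, and MITF, ROPN1B and EDNRB lost theirs. Leaving out each array gave 12 to 13 calls over the 5 conditions, 7 to 8 against the mean of 4, 7 to 7 against 50% confluence, 8 to 10 against HS, 4 to 8 against DMEM, 5 to 7 against RPMI-1640 and 25 to 38 over the 6 pairs, the fewest without the first DMEM array. With the compared conditions alone in the fit, calls against HS, DMEM and RPMI-1640 were 6, 5 and 5, and 37 over the 6 pairs. The uncalled differences of SOX10 (-0.0102 to 0.36) and CSPG4 (-0.0631 to 0.20) from the mean of 4 turned, to -0.0102 without the second and to -0.0631 without the first 0.1% FBS array. The replicate numbers showed no clear pairing of the samples, since same-numbered arrays deviated together over 0.1 in only 2 of 15 pairs (median -0.000931). A weak pairing would not show in this check. With the number as a block, calls were 12 over the 5 conditions, 8 against the mean of 4, 7, 9, 5 and 7 against 50% confluence, HS, DMEM and RPMI-1640, and 36 over the 6 pairs. Having 2 arrays per condition and probes near background, such as the second MITF probe, limit what can be told apart.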

Other observations

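In MEM at 90% confluence, single genes related to the 9 stood far from or close to the other 5 conditions, and those given here were chosen after their values were seen. SOX9, a relative of SOX10, measured 9.08 in MEM and 6.61 to 6.75, not above background, in the other conditions, at least 4.34-fold higher in MEM. TFAP2A measured 7.46 in MEM and 9.32 to 10.96 elsewhere. TYR, at 7.83 in MEM, lay within the 6.89 to 9.44 of the other conditions, unlike the brightest probe of MITF. MBP, a myelin protein, was above background in MEM alone, at 8.71.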
